A study of Homo sapiens with 12 samples.

Results

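The genes described here are 10 genes of the integrated stress response and of serine synthesis, ATF4, DDIT3, DDIT4, TRIB3, ASNS, CHAC1, SESN2, PSAT1, PHGDH and SLC7A11. They were chosen by symbol, as a check for a stress response to doxycycline (DOX), and are 10 of the 39368 symbols with a count in each deposited table. All 10 passed the filter on low counts in both lines. CAL27 and HSC3 are established HPV-negative head and neck squamous cell carcinoma lines. Both were transduced with pLKO-tet-puro carrying an shRNA against MUC1 (tet-MUC1shRNA), which is expressed when DOX is added, and were selected in puromycin. Each line was treated for 7 days with vehicle (0.1% DMSO) or with 500 ng/ml DOX, and poly(A) RNA-seq was performed on 3 cultures in each of the 4 groups. CAL27 cells were grown in DMEM and HSC3 cells in MEM, so cell line and medium cannot be told apart. No DOX-treated library with a control shRNA was analysed here, so the effects of DOX itself and of the MUC1 shRNA cannot be told apart either.

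In the integrated stress response, kinases that sense amino acid shortage, unfolded protein, viral RNA or heme shortage phosphorylate the translation factor eIF2. Most translation then falls, while translation of the ATF4 mRNA rises, and the ATF4 protein turns on genes for amino acid uptake and synthesis. ATF4 is therefore controlled in large part at translation, which RNA-seq does not measure, and its target genes are the usual RNA readout. Doxycycline blocks mitochondrial ribosomes, and in several cell types mitochondrial stress of this kind is known to raise the ATF4 target genes. PHGDH and PSAT1, which are also ATF4 targets, catalyze the first steps of the synthesis of serine from a glycolytic intermediate.

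ATF4 and its partners bind C/EBP-ATF response elements, so the bases before the start of each gene were searched for TGATGNAA on both strands. RefSeq sequences on GRCh38.p14 were given for 9 of the 10 genes, and the window was the 250 bases before the first start listed. The letters were found in 2 of these 9 windows, those of ASNS and CHAC1, and in 3.14% of all 35116 windows of that length. The matches are shown in capitals with 10 bases on either side, because they have the letters of the element by which ATF4 is known to act. Binding was not measured here, and both matches lie under exons of GENCODE v44 transcripts. The CHAC1 match reads on the opposite strand, and the matches began 68 and 209 bases before the start.

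ASNS: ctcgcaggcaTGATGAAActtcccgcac
CHAC1: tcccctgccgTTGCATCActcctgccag

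Shown next are the windows of 3 genes that fell with DOX in both lines, DDIT4, TRIB3 and PSAT1, and of SESN2, whose fold changes had opposite signs in the lines. Bases under an exon of any GENCODE v44 transcript were left out, which removed the whole window of ATF4. All 4 are on the plus strand, DDIT4 at chr10:72273705-72273918, TRIB3 at chr20:381170-381245, PSAT1 at chr9:78296875-78297124 and SESN2 at chr1:28259268-28259517. None holds the letters searched for, which says only that they are absent from this window.

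DDIT4: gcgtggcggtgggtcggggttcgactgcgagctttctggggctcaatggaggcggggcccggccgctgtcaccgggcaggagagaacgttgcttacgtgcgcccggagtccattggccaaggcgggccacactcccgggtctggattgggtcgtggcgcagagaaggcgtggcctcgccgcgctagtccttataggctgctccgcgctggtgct
TRIB3: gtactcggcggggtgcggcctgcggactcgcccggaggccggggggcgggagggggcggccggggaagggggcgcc
PSAT1: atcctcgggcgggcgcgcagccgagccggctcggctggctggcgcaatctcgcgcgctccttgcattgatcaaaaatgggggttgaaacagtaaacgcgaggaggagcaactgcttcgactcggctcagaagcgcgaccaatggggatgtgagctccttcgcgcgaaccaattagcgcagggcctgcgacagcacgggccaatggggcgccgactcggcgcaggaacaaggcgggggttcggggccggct
SESN2: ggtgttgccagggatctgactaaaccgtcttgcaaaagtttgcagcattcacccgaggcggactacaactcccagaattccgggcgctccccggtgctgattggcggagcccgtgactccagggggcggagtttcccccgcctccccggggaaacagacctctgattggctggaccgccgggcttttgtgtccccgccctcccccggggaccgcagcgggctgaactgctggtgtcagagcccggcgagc

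Counts per library summed to 92866845 to 126328662 in CAL27 cells and to 89730914 to 169065103 in HSC3 cells. Counts per molecule, an indirect estimate of duplication, came to 2.45 to 3.33 for CAL27 cells. For HSC3 cells the estimate moved with DOX, from 4.18 to 7.43 under vehicle to 8.93 to 17.2 under DOX. It rests on the share of genes without a count, so spread between cultures could raise it as well. MUC1 fell from 60.9 ± 2.61 to 3.28 ± 0.274 CPM (count scaled to a common library size, mean ± SD, n = 3) in CAL27 cells and from 1.60 ± 0.161 to 0.214 ± 0.0834 CPM in HSC3 cells. The HSC3 values rested on few counts, 162 to 196 a library with vehicle and 16 to 46 with DOX. With vehicle, MUC1 was far lower in HSC3 than in CAL27 cells (log2 difference -4.98, SE 0.15). All 8 squamous epithelial markers had counts in every library. Of 10 markers of other cell types, 1 to 3 were at 0 in each CAL27 library and 4 to 6 in each HSC3 library, and their summed level was 10.6 to 12.2 CPM (vehicle) and 9.78 to 11.1 CPM (DOX) in CAL27 cells and 4.58 to 5.35 CPM (vehicle) and 5.86 to 9.13 CPM (DOX) in HSC3 cells, most of it COL1A1. CPM below are scaled within each line by edgeR's TMM method, p-values are those of edgeR's two-sided quasi-likelihood test, adjusted over all genes tested, and a gene is said to rise or fall when the adjusted p was under 0.05.

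DOX did not raise these genes as a group in either line. In CAL27 cells ATF4, DDIT4, TRIB3, PSAT1, PHGDH and SLC7A11 fell, SESN2 rose, and DDIT3, ASNS and CHAC1 did not pass. In HSC3 cells DDIT3, DDIT4, TRIB3, ASNS, PSAT1 and SLC7A11 fell, and ATF4, CHAC1, SESN2 and PHGDH did not pass. DDIT4, TRIB3, PSAT1 and SLC7A11 were thus the 4 genes that fell in both lines.

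The count that fell in CAL27 cells was 6 of 10, against 21.8% of 19239 genes tested, and the count that rose was 1 of 10, against 22.6%. In HSC3 cells 6 of 10 fell, against 15.4% of 18021 genes, and 0 of 10 rose in edgeR, at an unadjusted p under 0.05 or in DESeq2, against 13.0%. On the log2 scale the median change over the 10 genes came to -0.26 for CAL27 cells, against -0.0052 over all genes tested, and to -0.52 for HSC3 cells, against -0.0097. The changes were small. None of the 10 genes changed by more than 2-fold in edgeR, also at an unadjusted p, or in DESeq2 in either line, against 6.42% of genes in CAL27 and 5.98% in HSC3 cells. Over all the alternatives run, DDIT3 in HSC3 cells ranged from -1.01 to -0.71 on the log2 scale, so it came to the edge of 2-fold. The 3 DOX libraries lay below the 3 vehicle libraries for 7 of the 10 genes in each line, against 26.3% of genes in CAL27 cells and 22.8% in HSC3 cells. They lay above for SESN2 alone in CAL27 cells, against 26.0% of genes, and for none of the 10 in HSC3 cells, against 19.8%.

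**Figure D1:**
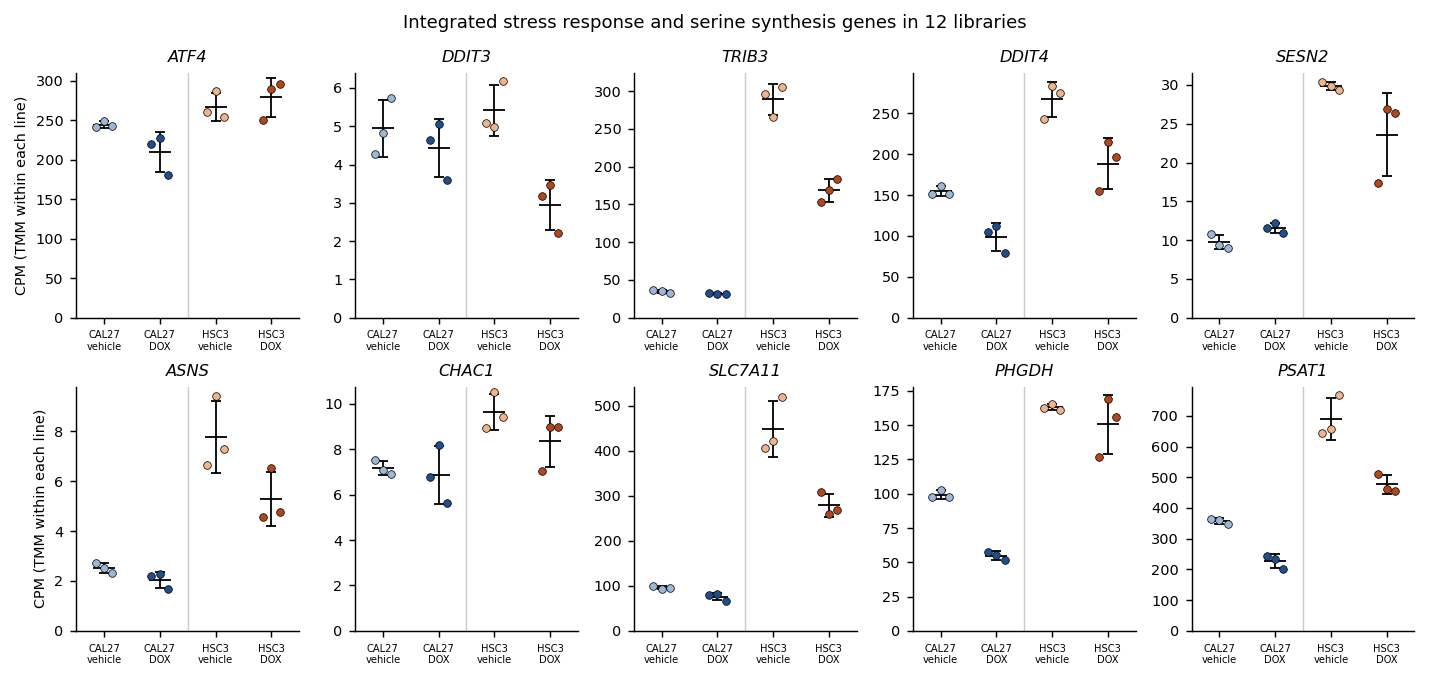
CPM of the 10 genes (y axis, starting at 0, TMM scaling within each line) in the 12 libraries (points) of the 4 groups, with the mean and SD of 3 libraries as bars. The DOX points lie below the vehicle points for 7 genes in each line, and above them for SESN2 in CAL27 cells.

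ATF4, the transcription factor at the center of the response, was measured at 241, 249 and 243 CPM in the CAL27 vehicle libraries. In the CAL27 DOX libraries, which the file numbers by columns 4 to 6 and not by replicate, it was at 220, 227 and 181 CPM. All DOX libraries lay below the vehicle libraries, and the lowest was that of column 6. ATF4 fell by 14.3% in CAL27 cells (log2 fold change -0.22, SE 0.079, edgeR adjusted p = 0.0496). This call was lost without vehicle replicate 1, 2 or 3 (adjusted p = 0.0821, 0.0744 and 0.0773) and in 1 fit over all 12 libraries (adjusted p = 0.0631). In HSC3 cells ATF4 was at 260, 287 and 254 CPM with vehicle and at 251, 290 and 296 CPM with DOX, and the groups overlapped (log2 fold change 0.064, SE 0.077, 95% confidence interval -0.11 to 0.23, adjusted p = 0.613). In bulk RNA, fewer cells with a transcript and less of it in each cell cannot be told apart.

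DDIT3 encodes CHOP, the transcription factor through which a prolonged response promotes cell death. Its level in CAL27 cells was 4.28, 4.83 and 5.75 CPM with vehicle and 4.65, 5.06 and 3.58 CPM with DOX, and the groups overlapped (log2 fold change -0.16, SE 0.13, edgeR adjusted p = 0.355). In HSC3 cells it was 5.09, 4.98 and 6.19 CPM with vehicle and 3.17, 3.46 and 2.20 CPM with DOX. Here every DOX library lay below every vehicle library, and DDIT3 fell by 45.6% (log2 fold change -0.88, SE 0.20, adjusted p = 0.00603), the largest estimate among the 10 genes in either line. It rested on few molecules, with 293 to 523 counts in the HSC3 DOX libraries at an estimated 8.93 to 17.2 counts per molecule. Of the exon bases of DDIT3 (chr12:57516588-57521737, minus strand, GRCh38), 31.6% lie under the antisense genes MARS1 and MBD6. The strand setting of the counting is not given in the sources used here, so reads of these genes could have been counted for DDIT3.

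TRIB3 is a pseudokinase that is turned on by ATF4 and CHOP and dampens their activity. In CAL27 cells it was at 36.5, 35.5 and 32.2 CPM with vehicle and 32.0, 31.2 and 31.4 CPM with DOX. The groups were close together but did not overlap, and TRIB3 fell by 9.20% (log2 fold change -0.14, SE 0.053, edgeR adjusted p = 0.038). That call was lost without vehicle replicate 1 or 2 or the DOX library of column 5 (adjusted p = 0.156, 0.102 and 0.113), in DESeq2 (0.0662) and in 1 fit over all 12 libraries (0.203). In HSC3 cells TRIB3 was at 297, 266 and 305 CPM with vehicle and 153, 169 and 183 CPM with DOX, a wide gap between the groups. It fell by 41.8% (log2 fold change -0.78, SE 0.080, adjusted p = 3.55e-05) and passed under every alternative run in this line.

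DDIT4, also called REDD1, inhibits mTORC1 under stress. It was at 152, 161 and 152 CPM with vehicle in CAL27 cells and at 105, 112 and 78.7 CPM with DOX. The DOX libraries all lay lower, most of all that of column 6, and DDIT4 fell by 36.6% (log2 fold change -0.66, SE 0.15, edgeR adjusted p = 0.0205). The call was lost without vehicle replicate 1 or 3 or the DOX library of column 4 (adjusted p = 0.053, 0.0502 and 0.0591). In HSC3 cells DDIT4 was at 243, 284 and 275 CPM with vehicle and 155, 215 and 196 CPM with DOX, and fell by 29.4% (log2 fold change -0.50, SE 0.11, adjusted p = 0.0052), with no overlap.

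SESN2, a leucine sensor that also restrains mTORC1, was the gene that rose in CAL27 cells. It was at 10.8, 9.41 and 9.03 CPM with vehicle and 11.5, 12.1 and 10.9 CPM with DOX. The highest vehicle library nearly reached the lowest DOX library, and the rise was 17.8% (log2 fold change 0.24, SE 0.081, edgeR adjusted p = 0.0213). It was lost without vehicle replicate 2 or 3 or the DOX library of column 5 (adjusted p = 0.122, 0.155 and 0.102) and in 1 fit over all 12 libraries (0.24). In HSC3 cells SESN2 was at 30.4, 29.9 and 29.4 CPM with vehicle and at 17.4, 27.0 and 26.4 CPM with DOX. DOX replicate 1 stood well below the others, and although no DOX library reached the vehicle libraries the test was not passed (log2 fold change -0.34, SE 0.15, adjusted p = 0.109).

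ASNS makes asparagine, and CHAC1 degrades glutathione. ASNS had few counts, at 2.72, 2.51 and 2.32 CPM with vehicle and 2.20, 2.27 and 1.67 CPM with DOX in CAL27 cells (log2 fold change -0.30, SE 0.15, edgeR adjusted p = 0.107). In HSC3 cells it was at 6.65, 9.40 and 7.27 CPM with vehicle and 4.57, 6.54 and 4.78 CPM with DOX. The DOX libraries lay below the vehicle libraries by a narrow margin, and ASNS fell by 31.8% (log2 fold change -0.55, SE 0.18, adjusted p = 0.0419). This call was lost without vehicle replicate 1, 2 or 3 or DOX replicate 3 (adjusted p = 0.0539, 0.208, 0.0874 and 0.137). All coding bases of ASNS (chr7:97851677-97872542, minus strand, GRCh38) lie under a second gene on the same strand, ENSG00000284707, so its counts are uncertain. CHAC1 was at 7.52, 7.09 and 6.92 CPM with vehicle and 6.79, 8.17 and 5.65 CPM with DOX in CAL27 cells, and at 8.94, 10.5 and 9.44 against 7.06, 8.99 and 8.99 CPM in HSC3 cells. Its groups overlapped in both lines (log2 fold change -0.068, SE 0.11 and -0.21, SE 0.13, adjusted p = 0.664 and 0.309). In CAL27 cells the value of CHAC1 changed sign to 0.062 without the DOX library of column 6.

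SLC7A11, the cystine importer xCT, feeds glutathione synthesis. It was at 99.0, 92.5 and 94.4 CPM with vehicle and 80.3, 80.9 and 67.2 CPM with DOX in CAL27 cells, where it fell by 20.1% (log2 fold change -0.32, SE 0.061, edgeR adjusted p = 5.54e-04). In HSC3 cells it was at 405, 422 and 520 CPM with vehicle and 308, 260 and 268 CPM with DOX, and fell by 37.9% (log2 fold change -0.69, SE 0.099, adjusted p = 3.84e-04). The groups did not overlap in either line, and both calls held under every alternative run at an adjusted p of 0.05. Of the exon bases of SLC7A11 (chr4:138164097-138242349, minus strand, GRCh38), 8.97% lie under the antisense gene SLC7A11-AS1, whose reads could have been counted for it.

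Among the genes chosen here, PHGDH and PSAT1 of serine synthesis gave the firmest changes in CAL27 cells. PHGDH, which catalyzes the first step, was at 97.4, 103 and 97.8 CPM with vehicle and 57.5, 55.6 and 51.6 CPM with DOX in CAL27 cells. Every DOX library was far below the vehicle libraries, and PHGDH fell by 44.8% (log2 fold change -0.86, SE 0.045, edgeR adjusted p = 6.41e-12). In HSC3 cells PHGDH was at 163, 166 and 161 CPM with vehicle and 127, 169 and 156 CPM with DOX, and the groups overlapped (log2 fold change -0.11, SE 0.092, 95% confidence interval -0.32 to 0.090, adjusted p = 0.425). PSAT1, the transaminase of the next step, was at 364, 362 and 347 CPM with vehicle and 245, 235 and 201 CPM with DOX in CAL27 cells. Its groups were clearly apart there and it fell by 36.5% (log2 fold change -0.66, SE 0.060, adjusted p = 9.15e-07). They were also apart in HSC3 cells, with 643, 656 and 767 CPM with vehicle and 510, 463 and 456 CPM with DOX (log2 fold change -0.53, SE 0.079, adjusted p = 4.67e-04). PHGDH in CAL27 cells and PSAT1 in both lines kept their calls under every alternative run. PSPH, a further enzyme of serine synthesis, was not among the genes chosen. It did not pass in CAL27 cells (log2 fold change -0.082, SE 0.050, edgeR adjusted p = 0.209). In HSC3 cells PSPH fell (log2 fold change -0.22, SE 0.067, edgeR adjusted p = 0.033).

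**Figure D2:**
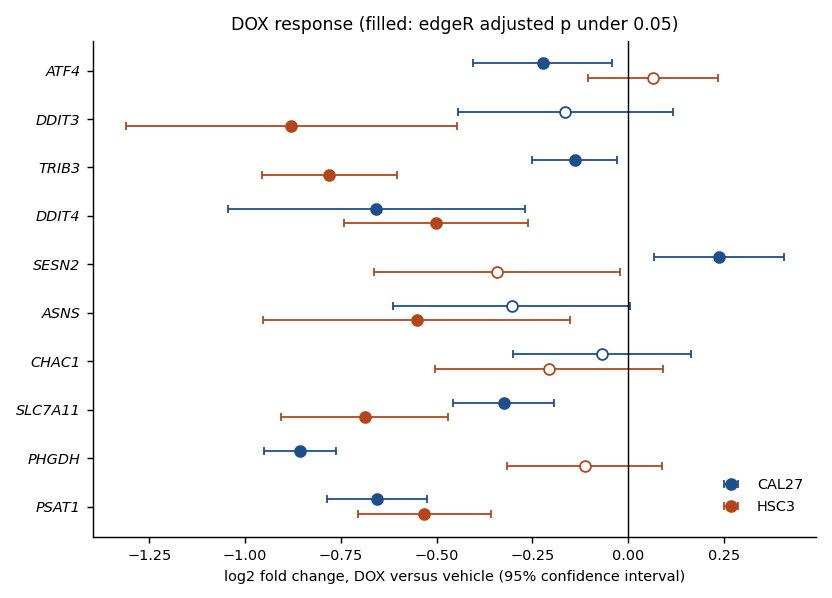
Log2 fold change with DOX (x axis, edgeR) of each gene in CAL27 (blue) and HSC3 (orange) cells, with 95% confidence intervals as bars and filled points where the adjusted p was under 0.05. DDIT4, SLC7A11, PSAT1 and TRIB3 are filled and left of 0 in both lines. PHGDH, ATF4 and SESN2 are filled in CAL27 cells alone, with SESN2 right of 0, and DDIT3 and ASNS in HSC3 cells alone.

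Whether the lines differed in their response was tested as the interaction of cell line and DOX over 12 libraries and 20694 genes. The response of TRIB3 was lower in HSC3 than in CAL27 cells by 0.64 on the log2 scale (difference -0.64, SE 0.099, edgeR adjusted p = 2.66e-04), and that of PHGDH was higher by 0.74 (SE 0.11, adjusted p = 1.99e-04). Both held under every alternative run. For SESN2 the difference was -0.58 (SE 0.18, adjusted p = 0.0369), and it was lost in 9 of 18 alternatives. In 8 of these 1 library was left out, CAL27 vehicle replicate 2 or 3 (adjusted p = 0.0935 and 0.104), the CAL27 DOX library of column 4, 5 or 6 (0.0768, 0.0968 and 0.0573) or HSC3 vehicle replicate 1, 2 or 3 (0.0796, 0.0731 and 0.0654). The count was thus 1 of 10 with a higher response in HSC3 cells, against 8.25% of genes tested, and 2 of 10 with a lower one, against 12.3%.

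The difference for DDIT3 was -0.72 (SE 0.26, 95% confidence interval -1.27 to -0.16, edgeR adjusted p = 0.0667). It passed in 5 of 18 alternatives, without the CAL27 DOX library of column 6 (0.045), without HSC3 DOX replicate 1 (0.0382) or 2 (0.0336), in DESeq2 (0.0498) and with counts divided by counts per molecule (0.0464). The difference for ATF4 was 0.29 (SE 0.12, 95% confidence interval 0.042 to 0.53, adjusted p = 0.0962), and it passed in 4 of 18, without HSC3 DOX replicate 1 (0.00897), without genes below a log2 CPM of 1 (0.0387), in DESeq2 (0.0486) and with counts divided by counts per molecule (0.0337). The difference for SLC7A11 was -0.36 (SE 0.14, adjusted p = 0.0765), and it passed in 3 of 18, without the CAL27 DOX library of column 6 (0.0429), without HSC3 DOX replicate 1 (0.0355) and with counts divided by counts per molecule (0.0418). For PSAT1 the difference was 0.13 with a 95% confidence interval of -0.11 to 0.37, and for DDIT4 it was 0.15 with an interval of -0.20 to 0.51. DDIT4, PSAT1, ASNS and CHAC1 passed under none of the alternatives run.

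The rest of the pathway was described with lists of genes by role. Over all genes tested, 22.6% rose and 21.8% fell in CAL27 cells, and 13.0% rose and 15.4% fell in HSC3 cells. Upstream of ATF4, among 17 genes of the eIF2 kinases, the eIF2 subunits and the eIF2 phosphatase, 10 rose and 3 fell in CAL27 cells, and 4 rose and 2 fell in HSC3 cells. PPP1R15B, a subunit of the eIF2 phosphatase, rose in both lines (log2 fold change 0.49, SE 0.037, edgeR adjusted p = 1.24e-09 and 0.39, SE 0.058, adjusted p = 4.55e-04). PPP1R15A, another such subunit, rose in CAL27 cells (0.35, SE 0.047, adjusted p = 3.72e-06) and was at 0.11 in HSC3 cells (adjusted p = 0.29). EIF2AK4, the kinase GCN2 that senses amino acid shortage, rose in both lines (log2 fold change 0.44, SE 0.038, edgeR adjusted p = 1.01e-08 in CAL27 cells and 0.47, SE 0.055, adjusted p = 9.76e-05 in HSC3 cells). EIF2AK2, the kinase PKR that senses double-stranded RNA, fell in both (log2 fold change -0.79 and -0.26). OMA1, the mitochondrial protease that relays mitochondrial stress to the eIF2 kinases, fell in CAL27 cells (log2 fold change -0.26) and rose in HSC3 cells (0.56).

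Of the bZIP partners of ATF4 and their feedback factors, 4 of 8 tested fell and 1 rose in CAL27 cells, and 4 of 7 fell in HSC3 cells. CEBPB, a partner that binds DNA with ATF4, fell in both lines (log2 fold change -0.42, SE 0.045, edgeR adjusted p = 2.26e-07 and -0.64, SE 0.11, adjusted p = 0.00133). JDP2 fell in both as well (log2 fold change -0.57 and -0.69). ATF3, itself a target of ATF4, was the one that rose in CAL27 cells (log2 fold change 0.24, SE 0.079, adjusted p = 0.0168), and its value in HSC3 cells was 0.088 (SE 0.16, adjusted p = 0.743).

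Among ATF4 targets in amino acid transport, 7 of 10 tested fell and 1 rose in CAL27 cells, and 6 of 10 fell and 1 rose in HSC3 cells, with medians of -0.21 and -0.38 on the log2 scale. SLC1A4, a carrier of serine and other neutral amino acids, fell in both lines (log2 fold change -0.84, SE 0.081 and -1.34, SE 0.093). The glycine carrier SLC6A9 (log2 fold change -1.19 in CAL27 and -0.62 in HSC3 cells) and the leucine carrier SLC43A1 (-1.43 and -1.68) also fell in both, and the glutamine carrier SLC38A1 rose slightly in both (0.099 and 0.23). Of 21 other ATF4 and CHOP targets tested, 10 fell and 4 rose in CAL27 cells and 11 fell and 1 rose in HSC3 cells. CDKN1A, which is also a p53 target, rose in both lines (log2 fold change 0.25 and 0.51), and GDF15 rose in CAL27 cells (0.34) and was at -0.10 in HSC3 cells (edgeR adjusted p = 0.665). ADM2 (log2 fold change -1.49 and -0.74), SESN3 (-0.95 and -1.29) and VLDLR (-1.12 and -1.13) fell in both lines. KLHL24 fell in CAL27 cells (log2 fold change -1.16) and was at 0.011 in HSC3 cells (edgeR adjusted p = 0.95).

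Among other genes of serine and one-carbon metabolism, PSPH included, 4 of 19 tested rose and 4 fell in CAL27 cells, near the shares over all genes. In HSC3 cells 8 of 17 fell and 2 rose. SFXN1, the mitochondrial serine carrier, fell in both lines (log2 fold change -0.25, SE 0.037 in CAL27 and -0.88, SE 0.063 in HSC3 cells). TYMS, which makes thymidylate, rose in CAL27 cells (log2 fold change 0.35) and fell in HSC3 cells (-0.46), and the mitochondrial folate enzyme ALDH1L2 fell in CAL27 cells (-0.76) and rose in HSC3 cells (0.57). Of 12 and 11 genes of glutathione and cystine metabolism tested, 4 rose and 5 fell in CAL27 cells and 6 fell in HSC3 cells, among them OPLAH in both lines (log2 fold change -1.16 and -0.85). Of 20 cytosolic aminoacyl-tRNA synthetases, many of which ATF4 also controls, 6 rose and 7 fell in CAL27 cells and 5 rose and 4 fell in HSC3 cells. WARS1, which interferon also induces, fell in both lines (log2 fold change -1.85 and -2.24).

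Genes of neighbouring stress pathways moved in other ways. Of 21 endoplasmic reticulum chaperones and genes of the ATF6 and IRE1 branches, 6 rose and 3 fell in CAL27 cells, and 1 rose and 5 fell in HSC3 cells. HSPA5, the chaperone BiP, rose in CAL27 cells by 0.20 on the log2 scale (SE 0.041, edgeR adjusted p = 5.35e-04) and was at 0.027 in HSC3 cells (adjusted p = 0.795). Of 12 mitochondrial chaperones and proteases, 8 rose and 1 fell in CAL27 cells, and 2 rose and 1 fell in HSC3 cells, with HSPD1 higher in both (log2 fold change 0.44 and 0.43). Of 13 mitochondrially encoded genes 1 rose in CAL27 cells, and all 13 rose in HSC3 cells (median log2 fold change 0.53), where they took 5.91% to 6.50% of counts with vehicle and 7.53% to 9.60% with DOX. The part that this share, or the higher estimate of counts per molecule in the same libraries, has in the values of the 10 genes was not tested.

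DDIT4 is also induced by hypoxia. Hypoxia genes fell for 7 of 12 tested in CAL27 cells and for 5 of 11 in HSC3 cells, with 1 rising there, and NDRG1 fell in both (log2 fold change -1.91 and -1.33). The part of this in the change of DDIT4 was not tested. Of 12 p53 target genes 3 rose and 3 fell in CAL27 cells, near the shares over all genes, and 3 rose and 2 fell in HSC3 cells. Of mTORC1 regulators, 6 of 15 tested rose and 4 fell in CAL27 cells, and 2 of 14 rose and 1 fell in HSC3 cells. Squamous epithelial markers fell for 6 of 8 in each line. Their summed level went from 7529.6 to 7699 CPM with vehicle to 3769.7 to 4037 CPM with DOX in CAL27 cells, and from 6606 to 7272 CPM to 3229.7 to 3850.3 CPM in HSC3 cells. Lineage genes thus moved with DOX alongside the 10 genes, and the part of this in their change was not tested. Of markers of other cell types 5 and 4 passed the filter on low counts, and 1 fell in CAL27 cells and COL1A1 rose in HSC3 cells (log2 fold change 0.73).

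**Figure D3:**
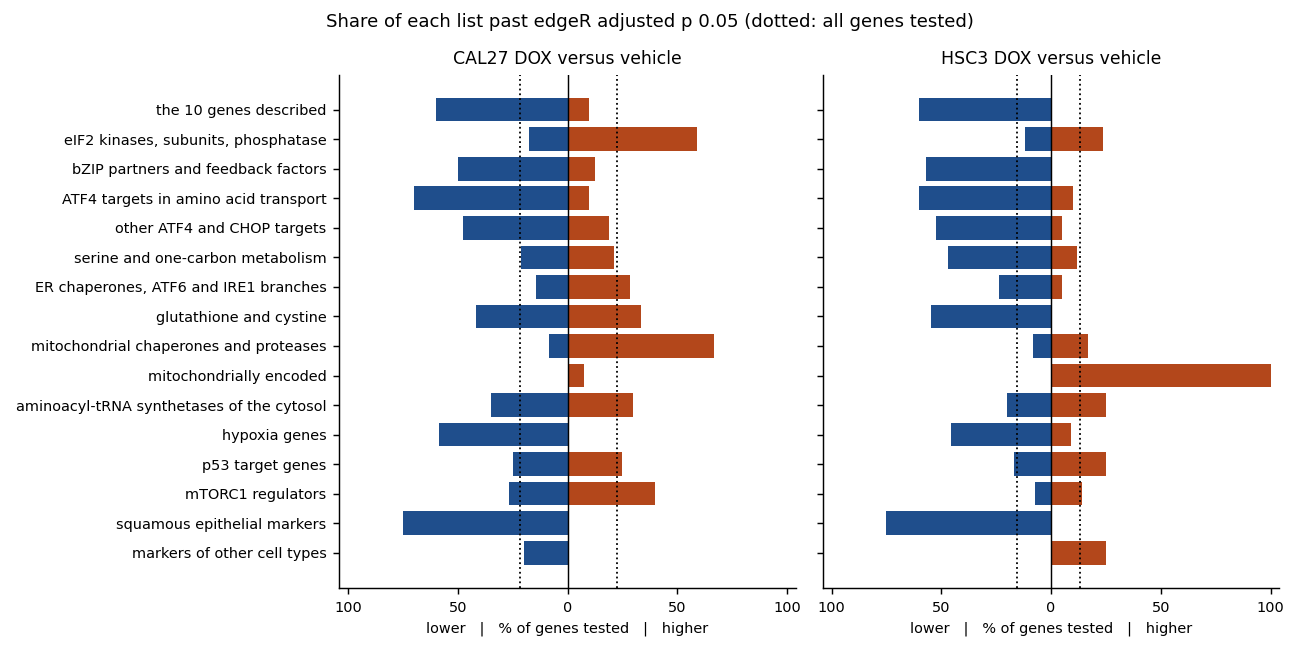
Share of the genes tested in each list (rows) that rose (orange, to the right) or fell (blue, to the left) with DOX in CAL27 cells (left panel) and HSC3 cells (right panel), in percent, with the share over all genes tested as dotted lines. The blue bar of the 10 genes reaches 6 of 10 in both panels, and all 13 mitochondrially encoded genes rose in HSC3 cells.

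At baseline the 10 genes were higher in HSC3 than in CAL27 cells. With vehicle, 9 of 10 were higher in HSC3 cells, against 30.6% of 20694 genes, and 0 of 10 were lower in edgeR, at an unadjusted p under 0.05 or in DESeq2, against 32.3%. The median difference was 1.14 on the log2 scale, against -0.12 over all genes. The difference was over 2-fold for 6 of the 10, against 31.9% of genes. DDIT3 was the gene that did not pass (log2 difference 0.41, SE 0.18, edgeR adjusted p = 0.0657). It passed in 6 of 20 alternatives. Among these were the fits without CAL27 vehicle replicate 3 (0.0472) and without HSC3 DOX replicate 1 (0.0471) or 3 (0.0394). The lowest adjusted p, 0.00741, came with the replicate number as a block.

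TRIB3 differed most, at 10.1-fold (log2 difference 3.33, SE 0.076, edgeR adjusted p = 1.14e-14), followed by SLC7A11 at 5.70-fold, ASNS at 3.73-fold and SESN2 at 3.70-fold. PSAT1 was 2.33-fold, DDIT4 2.09-fold, PHGDH 1.99-fold and CHAC1 1.62-fold higher in HSC3 cells. ATF4 itself was 1.32-fold higher (log2 difference 0.40, SE 0.081, adjusted p = 4.57e-04). Scaling by library totals in place of TMM lowered the median over all genes by 0.27 on the log2 scale, took the share of genes higher in HSC3 cells among those passing from 48.7% to 35.7%, and left ATF4 at 0.13 (adjusted p = 0.194). The other 8 genes passed with either scaling. Other ATF4 targets were also higher in HSC3 cells, against 30.6% of all genes higher and 32.3% lower. They were 9 of 10 in amino acid transport with none lower, and 15 of 21 of the remaining targets with 3 lower. This was not particular to these lists. Of endoplasmic reticulum genes 13 of 21 were higher and 6 lower, and of aminoacyl-tRNA synthetases 14 of 20 were higher and 4 lower. Other serine and one-carbon genes were split, with 8 of 19 higher and 7 lower. Of mitochondrial chaperones and proteases 2 of 12 were higher and 7 lower.

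For levels between genes, CPM scaled by TMM over all 12 libraries were divided by the length of the canonical transcript in kb. In CAL27 vehicle cells ATF4 was highest at 156 ± 1.55 CPM per kb (SD, n = 3), followed by PSAT1 at 147 ± 4.29, DDIT4 at 80.6 ± 2.47, PHGDH at 48.4 ± 1.21, TRIB3 at 13.4 ± 0.908 and SLC7A11 at 8.97 ± 0.384 CPM per kb. DDIT3 at 4.98 ± 0.731 and CHAC1 at 4.29 ± 0.214 CPM per kb overlapped, and SESN2 at 2.56 ± 0.264 and ASNS at 0.958 ± 0.0807 CPM per kb were lowest. In HSC3 vehicle cells PSAT1 came first at 343 ± 33.0 CPM per kb, then ATF4 at 207 ± 14.5, DDIT4 at 168 ± 14.1, TRIB3 at 135 ± 8.96, PHGDH at 96.0 ± 1.83 and SLC7A11 at 51.1 ± 6.94 CPM per kb. SESN2 at 9.49 ± 0.177 came next, CHAC1 at 6.96 ± 0.615 and DDIT3 at 6.59 ± 0.794 CPM per kb overlapped, and ASNS was again lowest at 3.58 ± 0.683. With the length of all exons in place of the canonical transcript, PSAT1 came before ATF4 in CAL27 vehicle cells too, DDIT4 came before ATF4 in HSC3 vehicle cells, and PHGDH, whose exons then cover 9187 bases and not 1866, came after SLC7A11 in HSC3 vehicle cells.

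**Figure D4:**
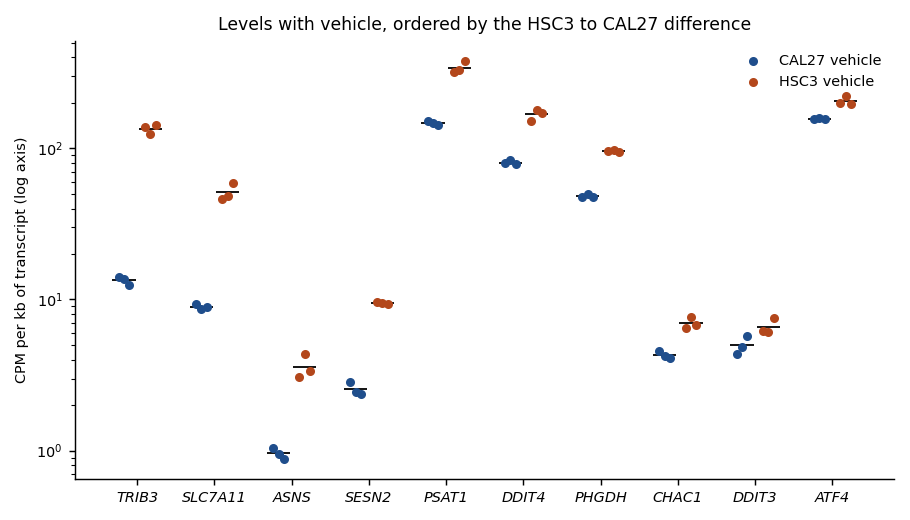
Level of each gene with vehicle, in CPM per kb of the canonical transcript (y axis, log scale, TMM over all 12 libraries), in 3 CAL27 (blue) and 3 HSC3 (orange) libraries, with the mean as a line. Genes are ordered from TRIB3, with a 10.1-fold difference, to ATF4, with a 1.32-fold difference, and the points of the lines overlap for none of the 10 genes and lie nearest for DDIT3.

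How the genes moved together between replicate libraries was described from the deviations of log2 CPM from the group means. In the CAL27 DOX library of column 6 all 10 genes were below their group mean, with a mean standardized deviation of -1.32. In HSC3 DOX replicate 1, 3 of the 10 were above the mean, and DDIT3, PSAT1 and SLC7A11 were these. Over 45 pairs of genes the median Pearson's r was 0.27 (Spearman's rho 0.33), and 38 pairs were above 0. The closest pairs by r were PSAT1 and SLC7A11 (r = 0.95, rho = 0.96, n = 12 libraries), DDIT4 and CHAC1 (r = 0.91, rho = 0.89) and ATF4 and CHAC1 (r = 0.90, rho = 0.92), and the farthest were DDIT3 and TRIB3 (r = -0.43, rho = -0.41). Without the 2 libraries farthest from the median these r were 0.92 for PSAT1 and SLC7A11 and 0.77 for both pairs with CHAC1 (n = 10). These values share the libraries and their scaling and describe no test. Among 8624 other genes, those nearest to the mean deviation of the 10 were NSMCE1, RPS23P8, MRPL37, TFAP4 and FUCA2 (r = 0.93 to 0.95 over 12 libraries and 0.83 to 0.90 over 10).

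**Figure D5:**
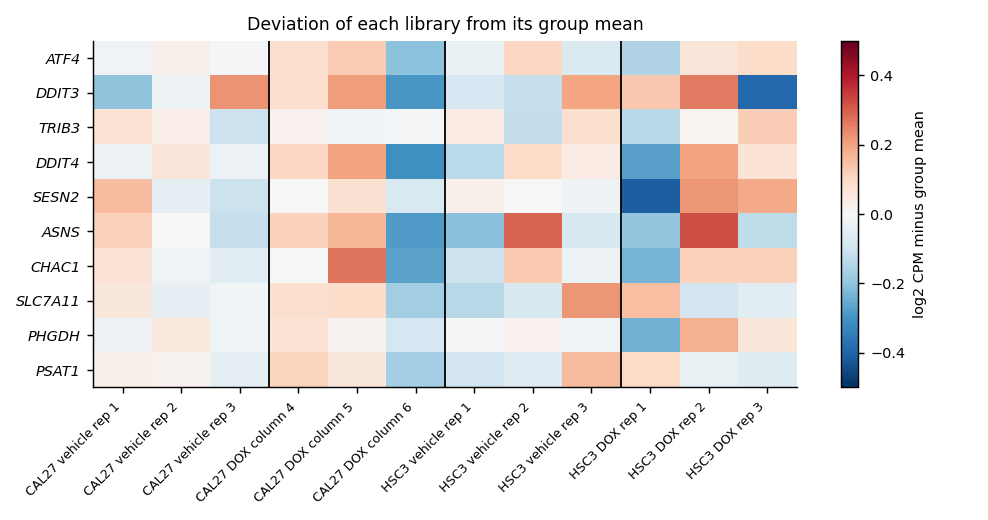
Deviation of log2 CPM from the group mean (color, red above and blue below) for each gene (rows) in each library (columns), with lines between the 4 groups. The CAL27 DOX library of column 6 is above its group mean for none of the 10 genes, and HSC3 DOX replicate 1 holds the lowest value of SESN2.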

How the data were processed

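RNA-seq counts of 12 libraries were used, 3 in each of 4 groups taken from the sample labels. Per the labels, RNA came from cultures in triplicate and libraries were made with the TruSeq Stranded mRNA kit. The authors deposited 1 table of whole-number read counts per gene symbol for each cell line, not normalized. The submitters' processing notes name FastQC 0.11.9, STAR 2.7.9a, Subread 2.0.1 and featureCounts with GRCh38. The strand setting is not given in the sources used here. The 3 CAL27 DOX columns carry no replicate number and were mapped to their group only.

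Counts were analysed in R 4.3.3 with edgeR 4.0.16 (filterByExpr with a minimum count of 10 and total of 15, TMM, robust glmQLFit, glmQLFTest, Benjamini-Hochberg adjustment over all genes tested). Each line was fitted alone, and the interaction and baseline over all 12 libraries. DESeq2 1.42.0, other scalings and filters, and each library left out were alternatives. The fits were tested on simulated data. P-values measure the spread between cultures of 1 transduced line. With 3 libraries a group, an exact permutation test cannot go below p = 0.1. For counts per molecule, genes expected at 8 to 16 counts from the other libraries of a group were used, by the share of them without a count. Replicates were compared in 12 pairs, and 0.535% to 1.93% of genes had equal counts. The chi-square per degree of freedom was 7.27 to 132, so replicates differed by more than counting noise. All 10 genes and 38934 of 39368 symbols matched GENCODE v44 on GRCh38, which gave lengths and overlaps. The reads of pseudogenes ATF4P3 and PSAT1P3 came to at most 1.61% and 0.414% of the counts of ATF4 and PSAT1.

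The 10 genes and the 15 other lists were chosen with earlier results of these data known. Of each other list, the text names at most the 2 largest rises and falls among genes past the test whose mean log2 CPM was 1 or more, and any gene of a list of up to 8. PSPH and PPP1R15A are named besides, as an enzyme of serine synthesis and as a subunit of the eIF2 phosphatase.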

Additional observations from a re-analysis of the deposited data

Results flagged for a closer look

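The response to DOX differed between the lines in the interaction test for 3 of the 10 genes, 1 with a higher response in HSC3 cells, against 8.25% of all genes tested, and 2 with a lower one, against 12.3%. The difference in log2 fold change, HSC3 minus CAL27, was -0.64 for TRIB3 (edgeR adjusted p = 2.66e-04), -0.58 for SESN2 (adjusted p = 0.0369, lost in 9 of 18 alternatives) and 0.74 for PHGDH (adjusted p = 1.99e-04). TRIB3 fell by 9.20% in CAL27 cells and fell by 41.8% in HSC3 cells. PHGDH fell in CAL27 cells and not past the test in HSC3 cells, and SESN2 rose in CAL27 cells and was at -0.34 in HSC3 cells.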

How the results depend on the processing

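Of 670 values of the 10 genes under an alternative, 615 kept their direction and side of the threshold, 35 lost the call, 18 gained one and 2 changed sign. The sign changed for CHAC1 in CAL27 cells (-0.21 to 0.062 with each library left out, the latter without the DOX library of column 6) and in the difference between the lines (0.015 without that of column 5). At an adjusted p of 0.01, 0 of the 10 genes rose and 3 fell in CAL27 cells, and 1400 genes rose in HSC3 cells. In 1 fit over all 12 libraries 0 of the 10 rose in CAL27 cells, and 2746 genes rose and 2337 fell. In the difference between the lines, 1 of the 10 was lower without a filter, 2 were higher when genes below a log2 CPM of 1 were dropped and in DESeq2, and 2 were higher and 4 lower with counts divided by counts per molecule. With each library left out in turn, 0 to 1 of the 10 rose and 3 to 6 fell in CAL27 cells, the lowest count of falls being that without vehicle replicate 1. In HSC3 cells 5 to 6 fell, and 1514 (without vehicle replicate 2) to 3268 genes rose. In the difference 1 to 2 of the 10 were higher and 1 to 4 lower, and 1336 to 2614 genes were higher, the highest of each without HSC3 DOX replicate 1. The counts, not corrected for duplication, were lowest for ASNS, with 195 to 965 a library, and DDIT3, with 293 to 809. The cause of these changes was not tested.

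A fit with the replicate number as a block was possible in HSC3 cells and between the vehicle groups. The deviations of same-numbered libraries had r = -0.16, 0.21 and -0.25 in HSC3 cells and 0.075, 0.089 and 0.14 between the vehicle groups. Not every pair was over 0.1 in either case, so the numbers were not taken to pair the samples. With the block 6 of the 10 fell and 0 rose in HSC3 cells, with 1955 genes rising and 2523 falling, and 10 of 10 were higher in HSC3 than in CAL27 vehicle cells, DDIT3 among them (adjusted p = 0.00741). No paired analysis was possible for CAL27 cells and the difference between the lines because the CAL27 DOX columns carry no replicate numbers.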
